A study of Homo sapiens with 12 samples.

Results

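AP-1 is a transcription factor built from pairs of basic leucine zipper (bZIP) proteins, and 9 genes encoding its subunits or close partners were read across the 4 groups of the study: FOS, FOSL1 and FOSL2 of the Fos family, JUN, JUNB and JUND of the Jun family, and ATF3, JDP2 and BATF3. The members were found by gene symbol in the platform annotation, by a rule that uses no measured value, although the set was proposed with earlier results of these data known. They have 22 of the 54675 probe sets on the array. Of these, 18 probe sets exceeded the median of their array on at least 3 arrays, and 8 of the 9 genes, all but FOS, had a tested value among 12887 tested genes.

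The cells were MDA231 (MDA-MB-231), an established human line from a triple-negative breast cancer with mesenchymal features, on 12 single-colour arrays in 4 groups of 3. Scramble cells carried a control hairpin RNA that targets no gene, and the ETX group carried the same control hairpin and received ETX, read here as etomoxir, which blocks carnitine palmitoyltransferase 1 (CPT1). The shCPT-1 and shCPT-2 groups carried lentiviral pGIPZ hairpins against CPT1 or CPT2, a pair of enzymes that act in turn to bring long-chain fatty acids to the mitochondrial matrix, where they are oxidised. All groups thus carry a hairpin construct, but scramble and ETX cells share theirs while each knockdown has its own. The design compares each alteration of beta-oxidation with scramble and the 4 groups with one another. The ETX dose and time on the arrays, the number of hairpins per target, and whether a knockdown population is 1 clone were not stated in the sources. The labels do not state that arrays of a group are separate cultures, so p-values describe only the spread between arrays, which may be technical.

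Jun proteins pair with each other or with Fos proteins, whereas Fos proteins need a Jun partner, and the pairs bind a short palindromic site, TGANTCA, in front of genes for growth, invasion and inflammation. FOSL1 (Fra-1) and its partner JUN are known for their high activity in triple-negative breast cancer cells, while FOS and FOSB are brief, early responses to growth factors. ATF3 and JDP2 belong to the same bZIP family, can pair with Jun proteins, can act as repressors, and bind the related site TGACNTCA as well. ATF3 is also a known target of ATF4, the factor of the integrated stress response, which binds the element TGATGNAA together with C/EBP proteins.

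Several members carry such elements in their own promoters, and the matches are printed here because ATF3, JDP2 and the genes most like them in pattern moved together in the results. Promoter windows of 300 bases, 250 before and 50 after a start site, came from RefSeq (GRCh38.p14), which had 10 windows for 7 of the 9 members. In each stretch the capitals mark the match, and the text is 5′ to 3′ on the strand of the gene.
JDP2: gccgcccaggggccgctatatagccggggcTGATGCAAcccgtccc
ATF3 (TGATGNAA): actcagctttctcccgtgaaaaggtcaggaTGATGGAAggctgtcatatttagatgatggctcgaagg
ATF3 (TGACNTCA): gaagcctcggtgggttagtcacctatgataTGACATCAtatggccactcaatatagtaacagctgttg
JUN: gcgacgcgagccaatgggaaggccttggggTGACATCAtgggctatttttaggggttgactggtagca
JUND: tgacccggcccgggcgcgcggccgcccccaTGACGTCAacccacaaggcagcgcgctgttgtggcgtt
FOSL2: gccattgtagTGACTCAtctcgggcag
ASNS: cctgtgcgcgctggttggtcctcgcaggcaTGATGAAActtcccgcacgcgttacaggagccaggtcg
GARS1: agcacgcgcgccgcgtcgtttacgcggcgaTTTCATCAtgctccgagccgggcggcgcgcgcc

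The JDP2 stretch is chr14:75427976-75428021 on the plus strand, with its match starting 16 bases before 1 of 3 annotated start sites. The ATF3 stretches are chr1:212565186-212565253 and chr1:212565254-212565321 on the plus strand, 191 and 123 bases before the more upstream of 2 start sites. The JUN stretch is chr1:58784077-58784144 and the JUND stretch chr19:18281785-18281852, both on the minus strand, with matches 67 and 200 bases before the start. The FOSL2 match lies 4 bases behind the first transcribed base, in chr2:28392852-28392878 on the plus strand. ASNS (chr7:97872439-97872506, minus strand) and GARS1 (chr7:30594815-30594877, plus strand, match on the opposite strand) are no members and are shown for the likeness results. Searched on both strands, TGACNTCA was found in 3 of the 10 windows, each of another member, TGATGNAA in 2 and TGANTCA in 1, and the CArG box bound by SRF in 0. Of all 35116 windows 7.72% hold TGACNTCA, 3.62% TGATGNAA, 7.71% TGANTCA and 1.29% a CArG box. A TGANTCA and a TGACNTCA match cannot begin at the same base. A match describes letters in this window and is not a measured binding site.

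The arrays were even in brightness, with medians of 74.9 to 77.2 intensity units, and correlated at 0.9915 to 0.9984 within groups against at most 0.9907 between groups. The labels were checked on the targeted genes. CPT1A was 1.59 ± 0.08 (SE, log2) lower in shCPT-1 than in scramble (limma adjusted p = 1.97e-08) and CPT2 1.0 ± 0.10 lower in shCPT-2 (adjusted p = 5.46e-06). Of the mesenchymal markers fixed for this line, 6 of 7 exceeded the array median on all 12 arrays, VIM and CD44 among them. For other cell types these were 4 of 10 luminal, 2 of 5 leukocyte, 2 of 5 endothelial and 1 of 6 fibroblast markers. The mesenchymal list had 4 of 7 lower in shCPT-1 (18% of all tested genes) and 3 of 7 lower in shCPT-2 (20.5%). None of the list was called with ETX, where 41.3% of all tested genes were called either way. Its mean level was 11.951 to 12.002 on the scramble arrays, 11.99 to 12.03 with ETX, 11.72 to 11.80 in shCPT-1 and 11.75 to 11.82 in shCPT-2. SPARC fell most in the knockdowns (-1.04 ± 0.10 and -0.87 ± 0.10), and its means there, 5.30 and 5.47, lay under the array medians. The other calls were CAV1 (-0.14), CD44 (-0.12) and MSN (-0.29) in shCPT-1, and CAV1 (-0.19) and MSN (-0.26) in shCPT-2. VIM, AXL and ZEB1 were not called in either. Of 5 tested luminal markers, 1 was higher and 2 lower in shCPT-1 (23.1% and 18% of all tested genes). In shCPT-2, 1 was higher and 1 lower (25.6% and 20.5%). The luminal keratin KRT19 was higher in shCPT-1 (0.73 ± 0.05) and shCPT-2 (0.43 ± 0.05). FOXA1, whose knockdown means lay under the array medians, was lower in both (-0.46 ± 0.11 and -0.35 ± 0.11), and GATA3 in shCPT-1 (-0.33 ± 0.04). HLA-DRA, listed for leukocytes, was lower in shCPT-2 (-1.75 ± 0.13). All these genes were chosen after their values were seen. The part of these shifts in the results was not tested. Actin control probe sets, which read RNA integrity or labelling, had a larger 3′ minus 5′ signal in scramble (2.07 ± 0.27 SD log2 units) than with ETX (1.75 ± 0.06), in shCPT-1 (1.73 ± 0.23) or in shCPT-2 (1.68 ± 0.23). Beyond the fits with this signal as a covariate given below, its part in the results was not tested.

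Against scramble, the 8 tested subunits did not move as a block: JDP2 and ATF3 rose in all 3 alterations, FOSL1 fell in all 3, and FOSL2, JUND and BATF3 set shCPT-1 apart. With ETX, 3 of 8 were higher and 2 lower, where 41.3% of all tested genes were called (limma, Benjamini-Hochberg adjusted p under 0.05), 21.9% higher and 19.4% lower. In shCPT-1, 4 were higher and 3 lower, against 41.1% of all genes called, 23.1% higher and 18% lower. In shCPT-2, 3 were higher and 3 lower, against 46.1%, 25.6% higher and 20.5% lower. The arrays of the 2 groups did not overlap for 5 of 8 members with ETX (49.5% of all genes), 8 with the CPT1 hairpin (51.1%) and 7 with the CPT2 hairpin (52.4%). The 3 comparisons share the scramble arrays. The median absolute log2 change of the 8 members was 0.25 with ETX, 0.45 in shCPT-1 and 0.18 in shCPT-2, beside 0.14, 0.14 and 0.15 over all tested genes. Their signed medians were 0.02, 0.20 and 0.02, beside -0.01, 0.01 and 0.0046 over all tested genes. Over the 4 groups the F test called all 8 tested members, against 69.8% of all tested genes, and 16 of the 18 kept probe sets, against 63.1% of all kept ones.

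**Figure D1:**
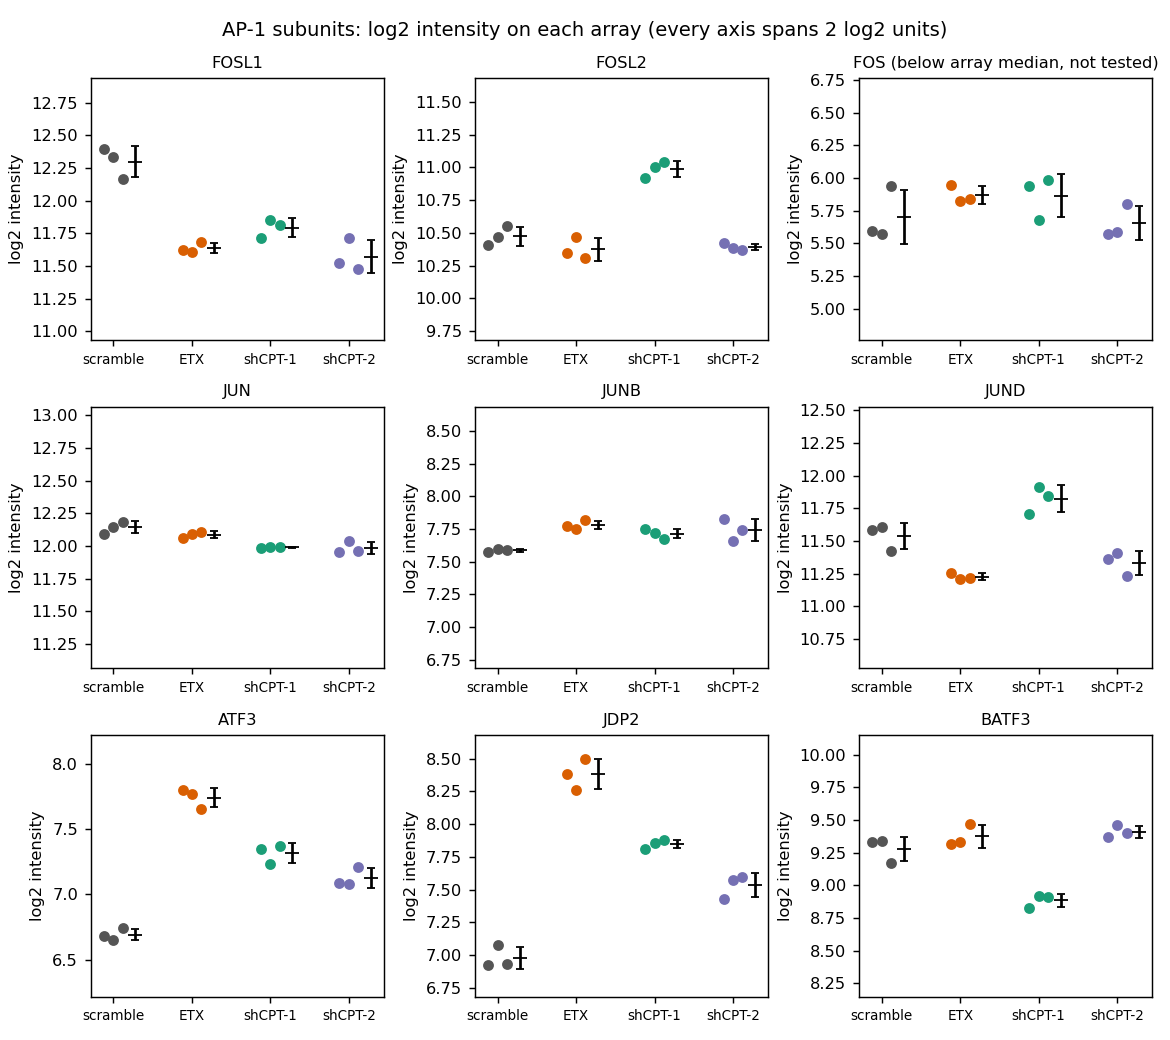
Log2 intensity of the 9 AP-1 subunits on each array (coloured points, 3 per group) with the group mean and SD (black), 1 probe set per gene and an axis of 2 log2 units in every panel. ATF3 and JDP2 step up from scramble through shCPT-2 and shCPT-1 to ETX, FOSL1 is highest in scramble, and the shCPT-1 points stand apart for FOSL2, JUND and BATF3.

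**Figure D2:**
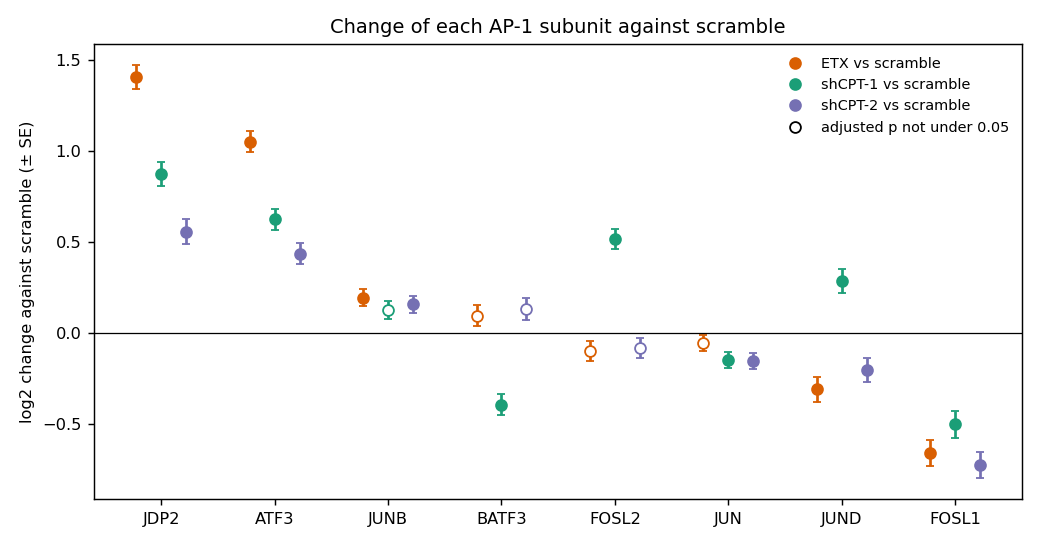
Log2 change of each tested subunit against scramble with its SE for ETX, shCPT-1 and shCPT-2. Filled points have an adjusted p under 0.05. JDP2 with ETX is the highest at 1.41 and FOSL1 in shCPT-2 the lowest at -0.73.

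FOSL1, the Fos-family subunit best known in this cell line, was the most reduced member. Its scramble arrays read 12.39, 12.33 and 12.17 log2 intensity. With ETX they read 11.62, 11.61 and 11.68, in shCPT-1 11.71, 11.85 and 11.82, and in shCPT-2 11.52, 11.72 and 11.48. Every scramble array was thus above all 9 others. FOSL1 fell 1.58-fold with ETX (-0.66 ± 0.07 SE log2, adjusted p = 4.16e-05), 1.42-fold in shCPT-1 (-0.50 ± 0.07, adjusted p = 0.000149) and 1.66-fold in shCPT-2 (-0.73 ± 0.07, adjusted p = 5.74e-06). These 3 calls held under all 24 alternatives tried, although with the actin signal as a covariate the sizes were -0.53, -0.36 and -0.56. In a culture, fewer cells with the transcript and less transcript per cell cannot be told apart.

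Among the 3 alterations FOSL1 differed little. ETX was 0.16 ± 0.07 below shCPT-1 (adjusted p = 0.101) and 0.07 ± 0.07 above shCPT-2 (adjusted p = 0.502). The first of these passed with array weights (-0.21), the actin covariate (-0.16), only the groups compared or without the 4 arrays least like their group (-0.22), and the second with array weights (0.12) or without those 4 arrays (0.11). shCPT-1 was 0.22 ± 0.07 above shCPT-2 (adjusted p = 0.0305), with overlapping arrays. That call ended without shCPT-1 replicate 2 (0.19) or 3 (0.21) or shCPT-2 replicate 1 (0.20) or 3 (0.18), and with no filter or a second quantile normalization. With array weights and without the 4 arrays the difference was 0.33 and 0.34.

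FOSL2 (Fra-2), the other Fos-related antigen measured here, rose in shCPT-1. Its probe set 225262_at, the brightest of 5, read 10.92, 11.00 and 11.04 log2 intensity in shCPT-1, against 10.41, 10.47 and 10.55 in scramble. With ETX the arrays read 10.35, 10.47 and 10.31, and in shCPT-2 10.42, 10.39 and 10.37. All shCPT-1 arrays lay above the other 9, which overlapped. FOSL2 was 1.43-fold higher in shCPT-1 than in scramble (0.51 ± 0.06, adjusted p = 1.50e-05). It was 0.61 ± 0.06 lower with ETX than in shCPT-1 (adjusted p = 2.51e-06) and 0.60 ± 0.06 higher in shCPT-1 than in shCPT-2 (adjusted p = 6.14e-06). Those 3 calls held under all 24 alternatives. The changes with ETX (-0.10 ± 0.06, adjusted p = 0.163) and in shCPT-2 (-0.08 ± 0.06, adjusted p = 0.246) against scramble did not pass.

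The 5 probe sets of FOSL2 shared the rise in shCPT-1, with changes against scramble of 0.25 to 0.60, all called among 28630 kept probe sets (background 35.1%). They differed in shCPT-2, where 218880_at (-0.46 ± 0.05) and 228188_at (-0.41 ± 0.05) were lower and the other 3, from -0.14 to 0.0024, did not pass (background 40.6%). With ETX only 228188_at passed, at -0.18 ± 0.05 (background 35.8%). All 5 were higher in shCPT-1 than in shCPT-2, by 0.31 to 1.01 (background 29%), and 4 were lower with ETX than in shCPT-1 (background 34.5%). For ETX against shCPT-2 the probe sets split, with 2 higher and 1 lower (background 39.2%). The call for FOSL2 in shCPT-2 therefore depends on the probe set, and the mean of all 5 was lower than scramble by 0.22 (adjusted p = 0.00126), while array weights gave -0.09 (adjusted p = 0.0474).

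FOS, the founding Fos member, was below the array median on all 12 arrays. Its single probe set read between 5.57 and 5.98 log2 intensity, against array medians of 6.23 to 6.27. Fitted without the filter, its 6 pairwise changes ran from -0.05 to 0.22 with a lowest adjusted p of 0.210, so no difference was detectable at this signal.

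**Figure D3:**
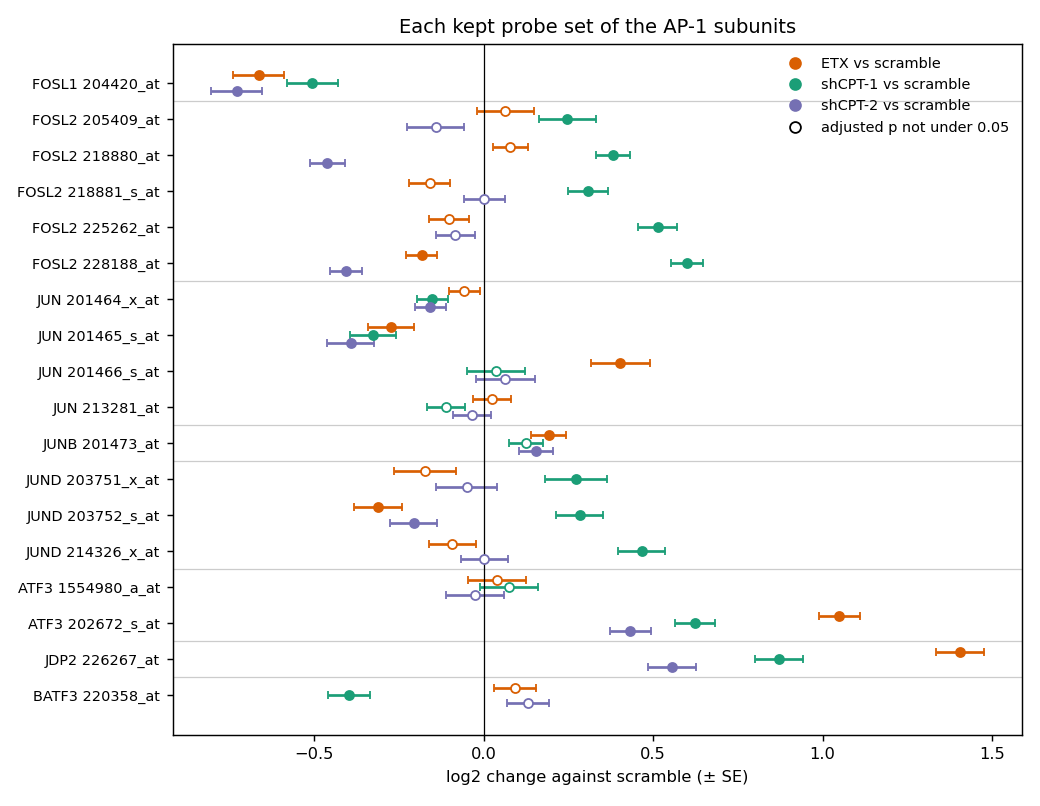
Log2 change against scramble with its SE for each of the 18 kept probe sets of the subunits, grouped by gene. Filled points have an adjusted p under 0.05 over all kept probe sets. The 5 FOSL2 and 3 JUND probe sets lie to the right for shCPT-1, whereas the 4 JUN probe sets and the 2 of ATF3 do not move together.

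JUN, the central Jun-family subunit, showed small shifts that its probe sets did not share. The brightest, 201464_x_at, read 12.09, 12.15 and 12.19 log2 intensity in scramble and 12.06, 12.09 and 12.11 with ETX. It read 11.99, 11.99 and 11.99 in shCPT-1 and 11.96, 12.04 and 11.96 in shCPT-2, so both knockdowns lay under scramble and ETX overlapped it. The changes were -0.15 ± 0.04 in shCPT-1 (adjusted p = 0.0124), -0.16 ± 0.04 in shCPT-2 (adjusted p = 0.00891) and -0.06 ± 0.04 with ETX (adjusted p = 0.306). With ETX, 201465_s_at was lower (-0.27 ± 0.07) and 201466_s_at higher (0.40 ± 0.09), while 213281_at was at 0.02 ± 0.06. In the knockdowns 201465_s_at was lower as well (-0.33 and -0.39), and 201466_s_at (0.04 and 0.06) and 213281_at (-0.11 and -0.03) did not pass. A direction for JUN with ETX thus depends on the probe set, and 213281_at alone, the 1 probe set of JUN whose type is not prone to cross-hybridise, gave no call in any comparison against scramble. The correlation of the 4 probe sets with one another over the 12 arrays ran from -0.31 to 0.69. Directly between groups, ETX was 0.09 ± 0.04 above shCPT-1 (adjusted p = 0.0911) and 0.10 ± 0.04 above shCPT-2 (adjusted p = 0.0721). Both differences passed with the mean of the probe sets (0.16 and 0.15), eBayes with trend and robust, or array weights. The second also passed without shCPT-2 replicate 2 (0.13) or without the 4 arrays least like their group (0.12).

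JUNB, which often opposes JUN, had small changes. It read 7.57, 7.60 and 7.59 log2 intensity in scramble and 7.77, 7.75 and 7.81 with ETX. The shCPT-1 arrays read 7.75, 7.72 and 7.68 and the shCPT-2 arrays 7.83, 7.66 and 7.74. All 9 altered arrays were above the 3 scramble arrays. JUNB was 0.19 ± 0.05 higher with ETX (adjusted p = 0.00736), a call that held under all 24 alternatives. In shCPT-2 it was 0.16 ± 0.05 higher (adjusted p = 0.0186), which ended without scramble replicate 1 (0.15) or shCPT-2 replicate 1 (0.11) or 3 (0.16), with only the groups compared and with the actin covariate (0.12). In shCPT-1 the difference of 0.13 ± 0.05 did not pass (adjusted p = 0.0534). It passed when shCPT-2 replicate 1 or 2 was left out (0.13 for both), with median centring (0.15), array weights (0.11) or the mean of the probe sets (0.13). JUNB has 1 probe set, so with that mean only the values of other genes differed.

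JUND, the Jun member usually present in resting cells, rose in shCPT-1 and fell with ETX. Its probe set 203752_s_at read 11.59, 11.61 and 11.43 log2 intensity in scramble and 11.71, 11.92 and 11.84 in shCPT-1. It read 11.26, 11.21 and 11.22 with ETX and 11.36, 11.41 and 11.23 in shCPT-2. The shCPT-1 arrays were above every other array, and the ETX and shCPT-2 arrays lay below all scramble arrays while overlapping each other. Against scramble JUND was 0.28 ± 0.07 higher in shCPT-1 (adjusted p = 0.00492), 0.31 ± 0.07 lower with ETX (adjusted p = 0.00326) and 0.21 ± 0.07 lower in shCPT-2 (adjusted p = 0.0242). It was 0.59 ± 0.07 lower with ETX than in shCPT-1 (adjusted p = 1.67e-05) and 0.49 ± 0.07 higher in shCPT-1 than in shCPT-2 (adjusted p = 0.000128). The fall with ETX was -0.19 with the actin covariate or the mean of the probe sets, still called. The fall in shCPT-2 ended without scramble replicate 1 (-0.18) or 2 (-0.17) or shCPT-2 replicate 3 (-0.16), with the actin covariate (-0.06) and with the mean of the probe sets (-0.08). ETX was 0.11 ± 0.07 below shCPT-2 (adjusted p = 0.227), which passed with the actin covariate (-0.13).

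All 3 kept probe sets of JUND were higher in shCPT-1 than in scramble (0.27, 0.28 and 0.47) and than in shCPT-2 (0.32, 0.49 and 0.46). With ETX or in shCPT-2, only 203752_s_at passed against scramble. The other kept probe sets had group means of 6.43 to 6.99, near the array medians of 6.23 to 6.27, so a fall there was hard to detect. 229117_s_at, not kept, was under the array median on all arrays and correlated at -0.60 to -0.76 with the kept ones. Without the filter, its change of -0.20 ± 0.11 in shCPT-1 did not pass (adjusted p = 0.266). All kept probe sets of JUND are of types that can cross-hybridise, so none remained when those types were left out.

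JDP2, a Jun-dimerising repressor, had the largest rise of the tested members in each comparison with scramble. Its scramble arrays read 6.92, 7.08 and 6.93 log2 intensity, and its ETX arrays 8.38, 8.26 and 8.50. The shCPT-1 arrays read 7.81, 7.85 and 7.88 and the shCPT-2 arrays 7.43, 7.57 and 7.60. The 4 groups did not overlap, in the order scramble, shCPT-2, shCPT-1 and ETX. JDP2 rose 2.65-fold with ETX (1.41 ± 0.07, adjusted p = 7.47e-08), 1.83-fold in shCPT-1 (0.87 ± 0.07, adjusted p = 1.05e-06) and 1.47-fold in shCPT-2 (0.56 ± 0.07, adjusted p = 2.96e-05). Each step of that order was called: shCPT-1 stood 0.32 ± 0.07 above shCPT-2 (adjusted p = 0.00295) and ETX 0.53 ± 0.07 above shCPT-1 (adjusted p = 4.45e-05). All 6 pairwise calls of JDP2 held under all 24 alternatives, each of which read 226267_at, its only kept probe set. Its second probe set, 239085_at, was under the array median on all arrays and, without the filter, stood 0.40 ± 0.08 above scramble with ETX, 0.37 ± 0.08 in shCPT-1 while its shCPT-2 value of 0.22 ± 0.08 did not pass (adjusted p = 0.0724). That probe set did not show the steps: ETX differed from shCPT-1 by 0.03 ± 0.08 (adjusted p = 0.853) and from shCPT-2 by 0.18 ± 0.08 (adjusted p = 0.153), and shCPT-1 from shCPT-2 by 0.15 ± 0.08 (adjusted p = 0.314).

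ATF3, a stress-induced bZIP factor, had the same order of groups. Probe set 202672_s_at read 6.68, 6.65 and 6.74 log2 intensity in scramble, 7.09, 7.08 and 7.21 in shCPT-2, 7.34, 7.23 and 7.37 in shCPT-1 and 7.80, 7.77 and 7.66 with ETX. Again no groups overlapped. ATF3 rose 2.07-fold with ETX (1.05 ± 0.06, adjusted p = 1.98e-07), 1.54-fold in shCPT-1 (0.62 ± 0.06, adjusted p = 4.02e-06) and 1.35-fold in shCPT-2 (0.43 ± 0.06, adjusted p = 6.11e-05). ETX stood 0.43 ± 0.06 above shCPT-1 (adjusted p = 7.46e-05). The step from shCPT-2 to shCPT-1 was 0.19 ± 0.06 (adjusted p = 0.0209), and it ended under 8 of the 24 alternatives, among them without shCPT-1 replicate 1 (0.18) or 3 (0.16) and without shCPT-2 replicate 1 or 2 (0.17 for both).

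The other ATF3 probe sets did not show this pattern. 1554980_a_at, above the array median on 11 arrays, differed from scramble by 0.04 ± 0.09 with ETX, 0.08 ± 0.09 in shCPT-1 and -0.02 ± 0.09 in shCPT-2, with no call. 1554420_at was under the array median on all arrays. The rise of ATF3 thus rests on 202672_s_at, of a type that can cross-hybridise, and without such types no ATF3 comparison passed.

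BATF3, which pairs with Jun in immune and lymphoma cells, was lower in shCPT-1. Its arrays read 9.33, 9.34 and 9.18 log2 intensity in scramble, 9.32, 9.33 and 9.47 with ETX, 8.82, 8.92 and 8.91 in shCPT-1 and 9.37, 9.46 and 9.40 in shCPT-2. All shCPT-1 arrays lay under the other 9. BATF3 fell 1.32-fold in shCPT-1 against scramble (-0.40 ± 0.06, adjusted p = 0.000198). It was 0.49 ± 0.06 higher with ETX than in shCPT-1 (adjusted p = 2.98e-05) and 0.53 ± 0.06 lower in shCPT-1 than in shCPT-2 (adjusted p = 2.85e-05). Those 3 calls held under all 24 alternatives. The changes with ETX (0.09 ± 0.06, adjusted p = 0.226) and in shCPT-2 (0.13 ± 0.06, adjusted p = 0.0924) did not pass, but both did with the actin covariate (0.18 and 0.23).

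Between alterations, ETX against shCPT-1 had 3 members higher and 2 lower, where 42.7% of all genes were called, 19.8% higher and 22.9% lower. ETX against shCPT-2 had 2 higher and 0 lower, against 45.8%, 20.9% higher and 24.9% lower. In shCPT-1 against shCPT-2, 5 were higher and 1 lower, against 35.5%, 17.8% higher and 17.7% lower. Groups did not overlap for 8, 3 and 5 of the 8 members in these contrasts, and for 54.3%, 55.8% and 48.6% of all genes. The 2 members higher with ETX than in shCPT-2 were JDP2 (0.85 ± 0.07, adjusted p = 7.44e-07) and ATF3 (0.62 ± 0.06, adjusted p = 3.00e-06). That count was 4 with array weights, with the mean of the probe sets and without the 4 arrays least like their group, where 60.5%, 45.7% and 53% of all genes were called. These contrasts share their groups with those against scramble. Over all pairs of members and contrasts, 31 of 48 were called, and 2 reached 2-fold, JDP2 and ATF3 with ETX.

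Over the 12 arrays ATF3 and JDP2 correlated at r = 0.97, FOSL2 and JUND at 0.87, FOSL2 and BATF3 at -0.96 and FOSL1 and JUNB at -0.88. These values describe 12 points in 4 groups, so differences between groups set most of them. Under a fixed rule, the 3 tested genes most like each member by Pearson r over the 12 arrays were named. For ATF3 they were CTH (0.985), GARS1 (0.983) and ASNS (0.980), and for JDP2 the same genes, CTH (0.982), ASNS (0.981) and GARS1 (0.975). CTH makes cysteine, ASNS makes asparagine and GARS1 charges glycine onto its tRNA, and all are known ATF4 targets. In each the order was scramble, shCPT-2, shCPT-1 and ETX, with changes against scramble of 0.996, 1.41 and 2.07 for CTH, 0.61, 0.84 and 1.68 for ASNS and 0.25, 0.40 and 0.66 for GARS1. The rule picked these genes by likeness on the same 12 arrays, so the shared order follows from the selection and is no separate result. As printed above, ASNS, GARS1 and ATF3 each hold TGATGNAA in 1 of 2 promoter windows and JDP2 in 1 of 3, and no match lay in the window of CTH. Of all single windows 3.62% hold it. The changes of ATF4 itself, which differed in direction between the alterations, are given below. Whether ATF4 has a part in these rises was not tested.

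**Figure D4:**
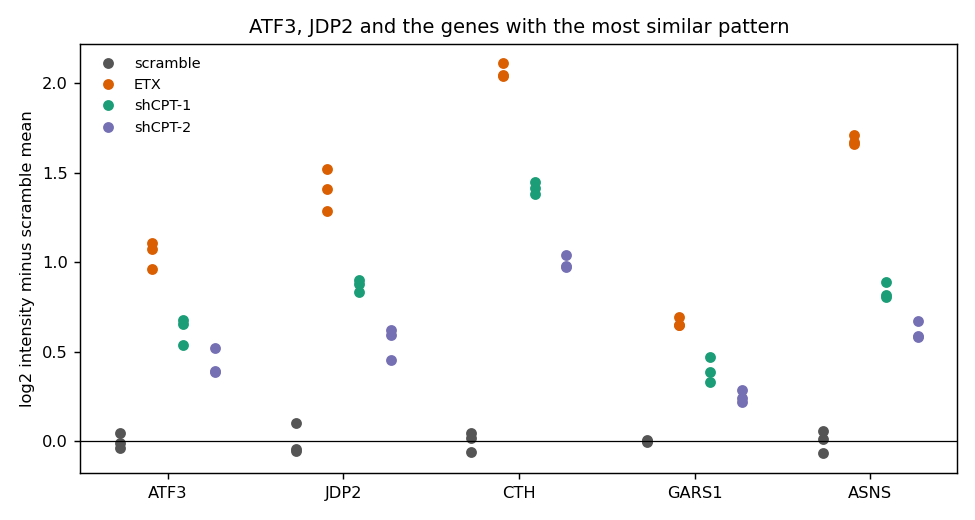
Log2 intensity minus the scramble mean of the same gene on each array for ATF3, JDP2 and the 3 genes closest to both, CTH, GARS1 and ASNS. In all 5 genes the group means step up from scramble through shCPT-2 and shCPT-1 to ETX, and CTH reaches the highest mean at 2.07. The 3 genes were picked for this likeness on the same arrays.

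The genes most like the other members were different ones. FOSL1 was closest to ZDHHC16 (0.979), FMNL1 (0.977), a formin of the actin skeleton, and PHF1 (0.976). FOSL2 was closest to TCEA3 (0.972), HLTF (0.972) and IGFBP6 (0.971), and JUND to PCNX2 (0.982), OASL (0.980) and RAC2 (0.972). BATF3 was closest to FAT1 (0.969), ETNK1 (0.968) and FANCM (0.965). JUNB was closest to YBX3 (0.959), SENP6 (0.954) and RNF111 (0.952). JUN had the least close genes, PIN4 (0.942), ACYP2 (0.940) and SNAI2 (0.939).

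Other bZIP genes, a list of 24 with 18 tested, had 11 higher and 1 lower with ETX, where 21.9% of all tested genes were higher and 19.4% lower. They had 8 and 3 in shCPT-1 (23.1% and 18% of all genes) and 7 and 3 in shCPT-2 (25.6% and 20.5%). Their median changes were 0.29, 0.14 and 0.08, beside -0.01, 0.01 and 0.0046 over all tested genes. CEBPB, a bZIP factor of inflammation and differentiation, rose by 0.70 ± 0.04 with ETX but was lower in shCPT-1 (-0.11 ± 0.04) and shCPT-2 (-0.39 ± 0.04). ATF4 itself was 0.58 ± 0.06 higher with ETX, did not pass in shCPT-1 (0.13 ± 0.06, adjusted p = 0.102) and was lower in shCPT-2 (-0.16 ± 0.06, adjusted p = 0.0368). XBP1, of the unfolded protein response, rose with ETX (1.04 ± 0.09) and in shCPT-1 (0.47 ± 0.09), and DDIT3 (CHOP) did so by 0.67 ± 0.06 and 0.34 ± 0.06. CEBPG, a partner of ATF4, rose by 0.48 ± 0.05 with ETX and 0.29 ± 0.05 in shCPT-1. CREB5 rose in all 3 alterations, by 0.44 ± 0.10, 0.57 ± 0.10 and 0.64 ± 0.10, and so did CREM (0.73, 0.44 and 0.83, each ± 0.09). ATF5, another bZIP gene tied to stress responses, was lower with ETX (-0.15 ± 0.05), did not pass in shCPT-1 (-0.11 ± 0.05) and was higher in shCPT-2 (0.35 ± 0.05).

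Kinases upstream of AP-1 and genes of JUN turnover, 22 tested of 30, were 6 higher and 6 lower with ETX, 8 and 4 in shCPT-1, and 8 and 6 in shCPT-2, where 41.3%, 41.1% and 46.1% of all tested genes were called either way. Among all genes, 21.9% were higher and 19.4% lower with ETX, 23.1% and 18% in shCPT-1, and 25.6% and 20.5% in shCPT-2. The median changes of the list were 0.05, 0.04 and 0.07. MAP2K4, which activates the JUN kinases, was 0.99 ± 0.04 higher in shCPT-1 and 0.93 ± 0.04 higher in shCPT-2, and 0.05 ± 0.04 with ETX did not pass (adjusted p = 0.360). MAP3K5 (ASK1), which stands above it, was lower in both knockdowns (-0.66 ± 0.08 and -1.09 ± 0.08). DET1, part of a ligase complex that degrades JUN, was higher in both (0.51 ± 0.06 and 0.58 ± 0.06). MAPK8 (JNK1) was higher with ETX (0.17 ± 0.05) and in shCPT-2 (0.33 ± 0.05). MAP3K8 was lower in shCPT-1 (-0.56 ± 0.06) and shCPT-2 (-0.26 ± 0.06). HRAS was lower in all 3 alterations (-0.36, -0.20 and -0.28, each ± 0.05), and the JUN ligase ITCH was higher in all 3 (0.28, 0.20 and 0.13, each ± 0.04). MAP3K1 was lower with ETX (-0.34 ± 0.04). MAPK7 was lower with ETX (-0.39 ± 0.06) and higher in shCPT-1 (0.44 ± 0.06) and shCPT-2 (0.38 ± 0.06).

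SRF and immediate early genes, 17 tested of 21, were 8 higher and 0 lower with ETX, 5 and 2 in shCPT-1, and 7 and 3 in shCPT-2. Of all tested genes, 41.3%, 41.1% and 46.1% were called either way, so the total called was near the background with ETX and in shCPT-1. By direction, 21.9% of all genes were higher and 19.4% lower with ETX, 23.1% and 18% in shCPT-1, and 25.6% and 20.5% in shCPT-2. The median changes of the list were 0.11, 0.16 and 0.11. DUSP1, a phosphatase that switches off MAP kinases, rose in all 3 alterations, by 1.01 ± 0.14, 0.94 ± 0.14 and 1.27 ± 0.14. EGR1, an early growth response factor, rose with ETX (0.36 ± 0.10) and in shCPT-1 (0.72 ± 0.10). IER3 fell in shCPT-1 (-0.47 ± 0.04) and shCPT-2 (-0.84 ± 0.04). The matricellular genes CCN2 (1.13 ± 0.14) and CCN1 (0.36 ± 0.08) and the ETS factor ELK3 (0.44 ± 0.06) rose with ETX, and all 3 also rose in shCPT-2 (0.77, 0.31 and 0.30). ZFP36, which destabilises cytokine mRNAs, rose in all 3 (0.22, 0.57 and 0.19, each ± 0.06). In shCPT-2, KLF6 rose (0.37 ± 0.05) and NR4A2, whose shCPT-2 mean lay under the array medians, fell (-0.72 ± 0.11).

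Genes listed as AP-1 targets, 19 tested of 25, changed in both directions. They were 8 higher and 7 lower with ETX, 5 and 7 in shCPT-1, and 4 and 10 in shCPT-2, with median changes of 0.06, -0.0045 and -0.18. Of all tested genes 41.3%, 41.1% and 46.1% were called either way. The shares higher and lower were 21.9% and 19.4% with ETX, 23.1% and 18% in shCPT-1, and 25.6% and 20.5% in shCPT-2. MMP9, a gelatinase, fell in all 3 alterations, by 1.23 ± 0.10, 1.72 ± 0.10 and 1.79 ± 0.10, and its knockdown means of 6.77 and 6.70 lay near the array medians. MMP1, a collagenase, rose with ETX (0.81 ± 0.04) and in shCPT-2 (0.63 ± 0.04) and fell in shCPT-1 (-0.52 ± 0.04). PLAU, the urokinase plasminogen activator, fell with ETX (-0.95 ± 0.05) and rose in shCPT-1 (0.60 ± 0.05). The inflammatory genes PTGS2 (2.06 ± 0.10) and IL6 (1.27 ± 0.06) rose with ETX, and both were lower in shCPT-2 (-0.40 ± 0.10 and -0.18 ± 0.06). IL11 and VEGFA had large falls in shCPT-2 (-1.37 ± 0.05 and -2.30 ± 0.11). IL11 was also lower with ETX (-0.37 ± 0.05) and VEGFA in shCPT-1 (-0.35 ± 0.11). HBEGF, a ligand of the EGF receptor, rose in all 3 (0.28, 0.56 and 0.46, each ± 0.05).

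**Figure D5:**
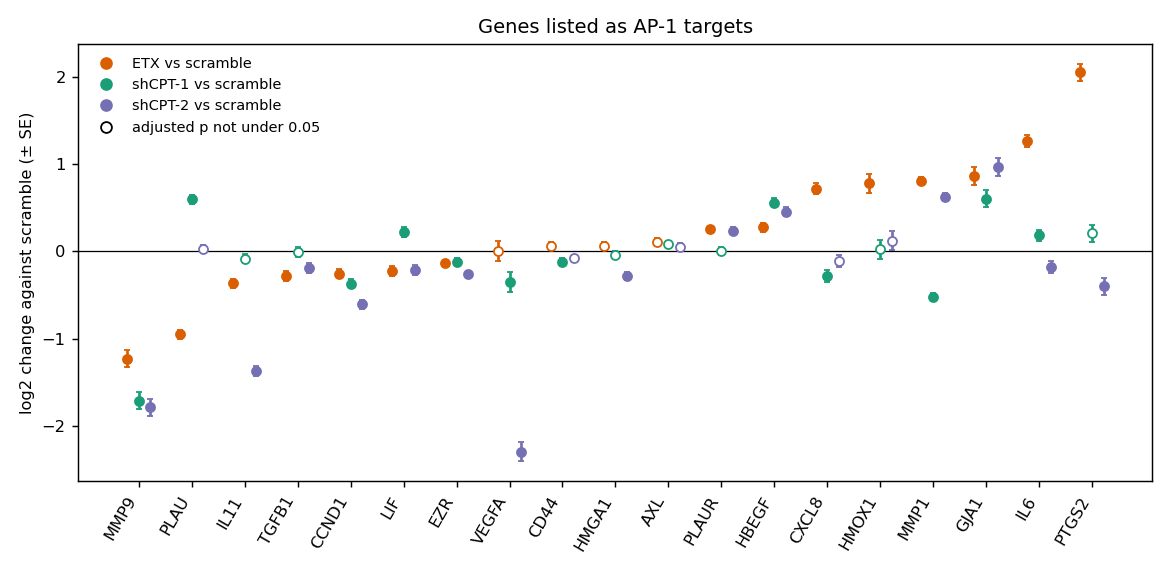
Log2 change against scramble with its SE for the 19 tested genes listed as AP-1 targets, in order of their change with ETX. Filled points have an adjusted p under 0.05. MMP9 lies below 0 in all 3 comparisons, whereas MMP1 and PLAU lie on opposite sides of 0 with ETX and in shCPT-1.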

How the data were processed

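RNA of 12 arrays in 4 groups of 3 was measured on single-colour arrays. The deposited values are intensities on a linear scale, which the authors made with RMA per the submitters' processing notes. No source used here states its version or settings. Log2 was taken, and a probe set was kept when above its array's median (control probe sets left out) on at least 3 arrays. The brightest kept probe set with 1 gene symbol stood for each gene, with symbols updated by gene ID. For genes other than the members only that probe set is reported, and several of these are of types that can cross-hybridise. All 12887 tested genes were fitted with limma 3.58.1 (R 4.3.3; lmFit, eBayes, residual df 8; tables read with the R package data.table, release 1.17.8), two-sided, with Benjamini-Hochberg adjustment within each comparison. Probe sets were also fitted singly, over 28630. With 3 arrays a side the smallest exact permutation p is 0.1, and no such test was run. The number of arrays limits the precision.

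Members, lists (from general knowledge) and alternatives were chosen with earlier results of these data known. Named genes are all members, up to 4 called genes per pathway list and comparison against scramble with the smallest p, and the 3 genes most correlated with each member. Lists were counted, not tested. The fit was tested on simulated data. Figures were drawn with matplotlib 3.10.9 under Python 3.11.15, from tables handled by pandas 2.3.3 and numpy 2.4.6.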

Additional observations from a re-analysis of the deposited data

How the results depend on the processing

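Of 24 alternatives, 23 were listed with the plan and 1, leaving out the 4 arrays that correlated least with their group (scramble 3, ETX 3, shCPT-1 1 and shCPT-2 2), was added after seeing the data. Without probe sets of types that can cross-hybridise, 7 members were tested and the called counts were 3 (ETX against scramble), 4 (shCPT-1), 3 (shCPT-2), 3 (ETX against shCPT-1), 1 (ETX against shCPT-2), 4 (shCPT-1 against shCPT-2) and 5 (4 groups). Of the 10022 genes of that fit 38.2%, 39.1%, 44.7%, 40.5%, 43.9% and 34.1% were called in those 6 comparisons. This setting reads other probe sets of ATF3 and JUN and none of JUND. FOSL1, JUNB, JDP2 and BATF3 have 1 kept probe set each, so settings that choose or average probe sets could not change their values. ATF3 then reversed without a call for ETX against shCPT-1 (-0.036) and shCPT-2 against scramble (-0.025), and JUN for ETX against scramble (0.024) and shCPT-1 against shCPT-2 (-0.076). ETX against shCPT-2 gave 4 calls in place of 2 with array weights, with the mean of the probe sets and without the 4 arrays, where 60.5%, 45.7% and 53% of all genes were called against 45.8% as reported. With the mean of the probe sets, FOSL2 turned to 0.16 for ETX against shCPT-2 (called), and JUN to 0.025 for ETX against scramble and -0.0076 for shCPT-1 against shCPT-2. Without the 4 arrays, BATF3 turned to -0.0078 for ETX against scramble, and FOSL2 and JUNB to 0.012 and -0.023 for ETX against shCPT-2. The cause of these moves beyond the choice of probe sets was not tested.

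Leaving out 1 array at a time, the counts ranged from 5 to 5 for ETX, 7 to 8 for shCPT-1 and 4 to 6 for shCPT-2 against scramble, 5 to 5 for ETX against shCPT-1, 2 to 3 for ETX against shCPT-2, 4 to 6 for shCPT-1 against shCPT-2, 7 to 8 for the F test and 14 to 16 of 18 for the probe sets, of which 16 were called with all arrays. The share of all genes called moved too, in the order of these 6 pairs from 31.2 to 43.4%, 34 to 43.4%, 38.5 to 47.3%, 35.7 to 45.7%, 39.9 to 48.4% and 28.6 to 38.4%. Uncalled differences near 0 turned sign there. For ETX against shCPT-2, FOSL2 ranged from -0.066 to 0.016 (turned without ETX 3) and JUNB from -0.0053 (turned without shCPT-2 2) to 0.080. For shCPT-1 against shCPT-2, JUNB ranged from -0.072 to 0.013 (turned without shCPT-2 1) and JUN from -0.0093 (turned without shCPT-2 1 and, at -0.0060, without shCPT-2 3) to 0.032. With the replicate block the counts were 5, 7, 6, 5, 2 and 6 in the order above, and 8 in the F test. These equal the counts without it, and the block changed no member's call. Of all genes, 39.4%, 39.3%, 44.6%, 41.4%, 44.5% and 34% were called with the block. No share of all genes was computed for the F test or the single probe sets under the alternatives. The labels give same-numbered arrays of different groups no link beyond the number. Their deviations from the group means correlated from -0.457 to 0.327. Arrays of different numbers were not compared, so whether same-numbered arrays are paired cannot be told. Signal over background limits FOS and the 3 other probe sets that were not kept, for which small changes were not detectable. It also limits kept probe sets near the array medians, such as 1554980_a_at of ATF3 and 203751_x_at and 214326_x_at of JUND.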

Other observations

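Some members are neighbours in the RefSeq gene order (GRCh38.p14), a property the choice of members did not use. FOS, JDP2 and BATF, another bZIP gene, follow one another on chromosome 14 with 0 other protein-coding genes between them. FOS had no signal above the array medians, JDP2 rose in all 3 alterations, and BATF, chosen here after its values were seen, did not pass against scramble in any (changes of -0.17, -0.19 and -0.13, each ± 0.08). ATF3 and BATF3 lie on chromosome 1 with 1 protein-coding gene, GARIN4, between them. In shCPT-1 against scramble they changed in opposite directions (0.62 ± 0.06 and -0.40 ± 0.06). JUNB and JUND are both on chromosome 19, with 146 protein-coding genes between them.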
